A study of Mus musculus with 8 samples.

Results

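The retinoid visual cycle was followed through 9 of its genes, Rlbp1, Rpe65, Lrat, Rdh5, Rdh10, Rdh12, Rbp3, Abca4 and Rgr, out of 19938 genes measured in mouse retina. The genes were taken by name, with earlier results of these data known, so counts among them are not a test of the list. Each of the 9 had 1 probe set with a single annotated gene. The groups were retinas of male C57BL/6 mice 1 week after MPTP, 1 week after saline, 4 weeks after MPTP and 4 weeks after saline. All mice were 6 weeks old at the start, MPTP being a neurotoxin whose metabolite blocks complex I of the mitochondrial respiratory chain. Each group had 6 mice and 2 arrays, with RNA of 4 retinas pooled on each array. Nothing states whether a group's 2 pools share mice, so p-values measure only the spread between these arrays, which may be technical. Whether pigment epithelium was kept with the retina is not stated either. Values are RMA signals on the log2 scale, on which a difference of 1 is a doubling, and the number of arrays limits their precision.

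In photoreceptors, light turns the 11-cis-retinal bound to opsin into the all-trans form. Photoreceptor enzymes reduce it to retinol, which passes to the pigment epithelium, where it is esterified, isomerized and oxidized back to 11-cis-retinal. Mueller glia, the radial glia of the retina, hold a binding protein for 11-cis retinoids and are thought to supply cones by a route of their own. By these roles Rlbp1, Rgr and Rdh10 belong to Mueller glia as well as pigment epithelium, Rpe65, Lrat and Rdh5 to pigment epithelium, and Rdh12, Rbp3 and Abca4 to photoreceptors.

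Photoreceptor and glial markers were bright on every array. Gnat1, the rod transducin subunit, lay between 12.43 and 12.63, and Glul, the glutamine synthetase of Mueller glia, between 11.26 and 11.50. Among pigment epithelium markers Ttr, the carrier of thyroxine and retinol-binding protein, lay between 9.87 and 11.04. Best1, a chloride channel of this epithelium, lay between 6.20 and 6.58, at percentile 30.3 of the mean signal of all genes. Tyr, the enzyme of melanin synthesis, lay between 5.14 and 5.64, at percentile 13.3. On the first principal component (38.3% of the variance), MPTP 1 week array 1 and saline 1 week array 2 stood apart from the other 6 arrays. The lens markers averaged 7.83 in MPTP 1 week array 2, against 6.72 to 7.33 in the other 7 arrays.

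Promoter sequence is shown for Rlbp1, whose signal was lower in all MPTP arrays, and for Rpe65 and Rgr, whose signals moved together from array to array. Each is the 250 bases before the start that the RefSeq table gives for the gene (build GRCm38.p6), 5′ to 3′ on the gene's strand, and capitals mark matches on either strand to GGATTA (the core bound by OTX2 and CRX), CAATTA (a homeodomain core), CACGTG and CATGTG (E-boxes of the kind MITF binds) or TATAAA (the TATA box). The Rlbp1 window is chr7:79387028-79387277 on the minus strand, the Rpe65 window chr3:159598931-159599180 on the plus strand and the Rgr window chr14:37049015-37049264 on the minus strand.
Rlbp1: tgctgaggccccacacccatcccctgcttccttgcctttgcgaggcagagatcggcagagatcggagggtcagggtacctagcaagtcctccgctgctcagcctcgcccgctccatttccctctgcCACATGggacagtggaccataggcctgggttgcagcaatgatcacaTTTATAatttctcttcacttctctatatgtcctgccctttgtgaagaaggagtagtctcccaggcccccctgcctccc
Rpe65: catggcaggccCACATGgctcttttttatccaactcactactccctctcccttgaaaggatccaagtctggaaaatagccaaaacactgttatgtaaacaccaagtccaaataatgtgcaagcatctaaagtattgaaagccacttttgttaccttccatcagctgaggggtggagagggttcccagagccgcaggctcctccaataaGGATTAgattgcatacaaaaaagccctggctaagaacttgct
Rgr: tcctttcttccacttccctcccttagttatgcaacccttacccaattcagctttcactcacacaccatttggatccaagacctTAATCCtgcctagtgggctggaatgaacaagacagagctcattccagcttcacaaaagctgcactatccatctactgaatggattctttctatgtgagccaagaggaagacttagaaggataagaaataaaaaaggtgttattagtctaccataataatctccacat
The Rlbp1 window held CATGTG starting 124 bases and TATAAA starting 78 bases before that start, both on the reverse strand, and no GGATTA. Rpe65 held GGATTA 42 bases and CATGTG, on the reverse strand, 239 bases before its start, and Rgr held GGATTA, on the reverse strand, 167 bases before its start. No searched motif overlapped another in these 3 windows. Of the 8 genes with a promoter in the table, 4 held GGATTA (Rpe65, Rgr, Rbp3 and Abca4), against 6.25% of all 32851 promoters, and 3 held CATGTG (Rlbp1, Rpe65 and Rbp3), against 12.3%. TATAAA was found in Rlbp1 and Abca4, against 12.4%, and CAATTA and CACGTG in none of the 8, against 7.17% and 6.02%. RefSeq annotates other transcripts of Rlbp1 and Rpe65 that start upstream, so these windows are not their only promoters. The annotated span of Rlbp1 runs from 79374865 to 79392250, so its whole window lies within that span. The annotated span of Rpe65 begins at 159599075, inside its window, so its GGATTA lies within that span. The annotated spans of Rdh5 and Abca4 also begin upstream of the start used.

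Rlbp1 encodes CRALBP, which carries 11-cis-retinal and 11-cis-retinol in Mueller glia and pigment epithelium. Its signal was 8.19 and 8.20 in the MPTP arrays of 1 week, against 8.65 and 8.78 in the saline arrays. The 4-week values were 8.44 and 8.16 with MPTP, against 8.59 and 8.58 with saline. Every MPTP array lay below every saline array, and MPTP 4 weeks array 1 lay nearest to saline. The log2 fold change was -0.52 ± 0.11 at 1 week and -0.28 ± 0.11 at 4 weeks (SE of the limma fit, n = 2 arrays a group), a ratio of 0.697 and 0.823. Over both times it was -0.40 ± 0.08 (n = 4 a treatment), with a 95% confidence interval of -0.58 to -0.22.

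Counted from the lowest fold change of all 19938 genes, Rlbp1 stood at rank 17 at 1 week, 111 at 4 weeks and 9 over both times. Among the 9969 genes at or above the median signal, Rlbp1 stood at rank 3 at 1 week and over both times, and at rank 29 at 4 weeks. It did not pass limma's test adjusted over all genes at 1 week (adjusted p = 1.00), at 4 weeks (1.00) or over both times (0.973), and its unadjusted p was 7.32e-04, 0.0263 and 4.26e-04. No gene passed in any of these comparisons (0% of 19938), and 842 genes (4.22%), 381 genes (1.91%) and 950 genes (4.76%) had an unadjusted p under 0.05 in the same order. Over both times, 2 of the 9 visual cycle genes, Rlbp1 and Rdh12, were lower in all MPTP arrays without overlap, against 1.49% of all genes, and none was higher without overlap, against 1.01%. Since the 9 genes were chosen with earlier results of these data known, this count is not a test of the list. At 4 weeks the value of Rlbp1 was -0.43 without MPTP array 1 and -0.14 without MPTP array 2. It was -0.45 ± 0.15 at 1 week and -0.34 ± 0.09 over both times without the 2 arrays that stand apart. Its effect at 4 weeks less that at 1 week was 0.24 ± 0.15 (adjusted p = 1.00 in limma). This difference was 0.10 without MPTP 4 weeks array 1 and 0.38 without MPTP 4 weeks array 2.

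**Figure D1:**
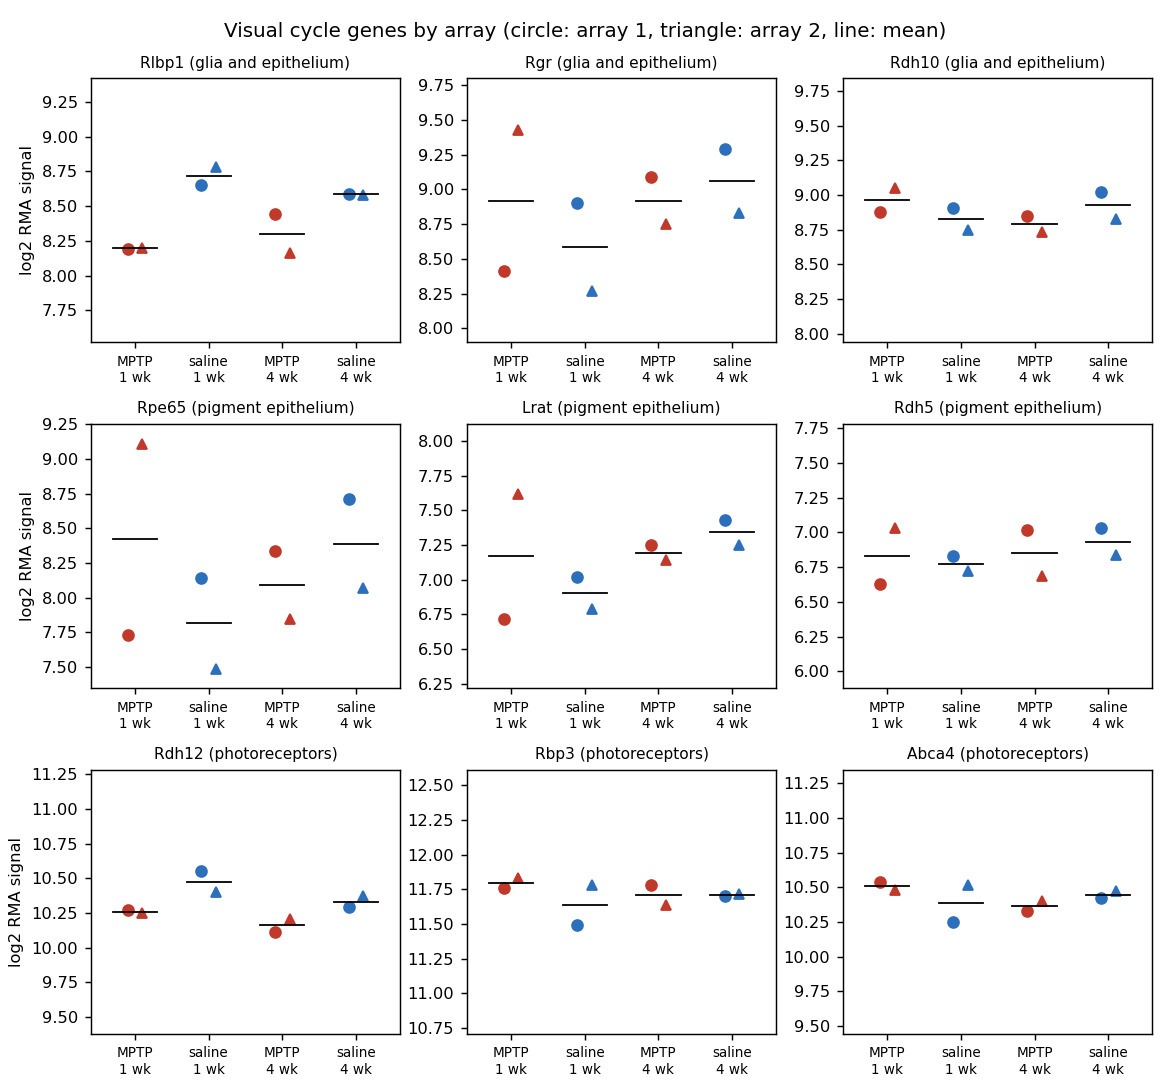
Log2 RMA signal of the 9 visual cycle genes on each array (1 panel a gene, each spanning 1.9 log2 units), by treatment and time. Circles are array 1, triangles array 2 and lines the mean of the 2. Rlbp1 and Rdh12 lay lower in each MPTP array than in any saline array, while Rpe65, Rgr and Lrat differed most between the 2 MPTP arrays of 1 week.

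Signals of Mueller glia markers as a list overlapped between MPTP and saline. The mean of the 18 markers was 8.77, 8.79, 8.84 and 8.75 in the MPTP arrays (1 week, then 4 weeks), against 8.81, 8.87, 8.86 and 8.78 in the saline arrays. Of the 18, 8 were above and 10 below 0 over both times, with a median of -0.05 against -0.0017 over all genes, and 0 passed. Glul stood at -0.07 ± 0.07 and the glutamate transporter Slc1a3 at 0.05 ± 0.06. Rlbp1 minus the mean of these markers was -0.58, -0.59, -0.40 and -0.59 in the MPTP arrays, against -0.16, -0.09, -0.28 and -0.20 in the saline arrays, without overlap. The marker mean itself lay between 8.75 and 8.87, so this difference mostly repeats the signal of Rlbp1 and is no separate result. Rlbp1 minus Rgr overlapped, at -1.23 to -0.22 in the MPTP arrays and -0.71 to 0.51 in the saline arrays. Cell number, RNA per cell and the shares of Mueller glia and pigment epithelium cannot be told apart in whole retina. The difference in Rlbp1 did not pass the adjusted test, and its source was not tested.

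Single glial markers lay on either side of 0, and those named here had the smallest unadjusted p of their list. Of the 18 markers, 8 were above and 10 below 0 at 1 week, where 53.1% of all genes were below 0. Cd9, a tetraspanin, was 8.03 and 7.97 in the MPTP arrays of 1 week, against 8.37 and 8.35 with saline (-0.36 ± 0.13, adjusted p = 1.00 in limma). At 4 weeks it was 8.24 and 7.82 with MPTP, against 8.25 and 8.16 with saline, which overlapped. Dkk3, a secreted Wnt pathway protein of Mueller glia, was 7.99 and 8.22 in the MPTP arrays of 1 week, against 8.27 and 8.74 with saline (-0.40 ± 0.15). Its 4-week values overlapped, at 8.25 and 8.10 with MPTP, against 8.21 and 8.21 with saline. Sox2, a transcription factor of Mueller glia, was 7.41 and 7.37 in the MPTP arrays of 1 week, against 7.11 and 7.25 with saline. Over both times Sox2 stood at 0.15 ± 0.07, and at 4 weeks Spc25 stood at -0.15 ± 0.09. The part of these markers in the result for Rlbp1 was not tested.

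Over the 8 arrays, Rlbp1 and the mean of the Mueller markers correlated at r = 0.745 (exact permutation p = 0.0433) and rho = 0.833 (exact p = 0.0154). The p for r was 0.192 after adjustment over 27 relations, and r was 0.544 without the 2 arrays farthest from the median and 0.572 without the 2 arrays that stand apart. The correlation was 0.885 within 1 week and 0.653 within 4 weeks, over 4 arrays each. Those 4 hold MPTP and saline arrays together.

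**Figure D2:**
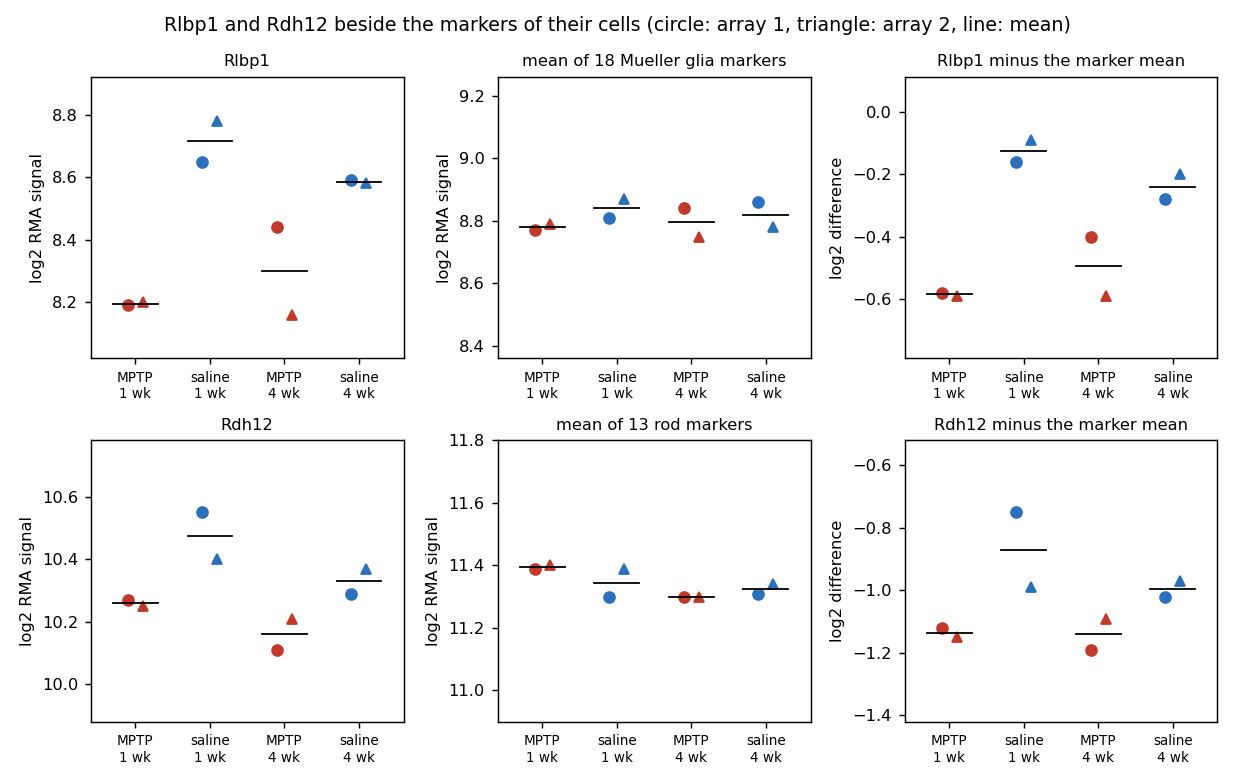
Log2 RMA signal of Rlbp1 and Rdh12 (left), the mean log2 signal of 18 Mueller glia and 13 rod markers (middle) and the log2 difference of gene and marker mean (right) on each array. Circles are array 1, triangles array 2 and lines the mean of the 2. The marker means of MPTP and saline arrays overlap, and the differences do not. The marker means vary little, so the differences mostly repeat the signals on the left.

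The genes whose pattern over the 8 arrays was most like Rlbp1, among 9968 others at or above the median signal, were Arfgef3 (Pearson r = 0.959), Gps1 (0.951), Knop1 (0.947), Fndc3b (0.941) and Get4 (0.939). Gps1 encodes a subunit of the COP9 signalosome and Get4 a factor for the insertion of tail-anchored membrane proteins. Their fold changes over both times were smaller than that of Rlbp1, from -0.19 (Gps1) to -0.10 (Fndc3b). The visual cycle gene nearest to Rlbp1 was Rdh12, at r = 0.626 and rank 573, and the other 7 lay between -0.257 and 0.120. Rlbp1 and Rdh12 were both lower in all MPTP arrays, and their deviations from the group means correlated at r = -0.801. With 2 arrays a group, a group's deviations mirror each other, so that r rests on only 4 independent values. Rlbp1 differed by only 0.01 between the arrays of MPTP 1 week and between those of saline 4 weeks. The correlations given here describe 8 arrays that share their scaling, and coefficients picked as the highest of 9968 are high by selection.

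The other genes of Mueller glia and pigment epithelium, Rgr and Rdh10, overlapped between MPTP and saline at both times. Rgr encodes an opsin-like protein that isomerizes all-trans-retinal in light. Its signal was 8.41 and 9.43 in the MPTP arrays of 1 week, against 8.90 and 8.27 with saline. The arrays of 4 weeks gave 9.09 and 8.75 with MPTP, against 9.29 and 8.83 with saline. MPTP 1 week array 2 was the highest of all, and the log2 fold change was 0.33 ± 0.31 at 1 week (0.52 without the 2 arrays that stand apart) and -0.14 ± 0.31 at 4 weeks. Rdh10 encodes a retinol dehydrogenase that oxidizes all-trans-retinol and can form 11-cis-retinal. It was 8.88 and 9.05 in the MPTP arrays of 1 week, against 8.91 and 8.75 with saline. At 4 weeks it was 8.85 and 8.73 with MPTP, against 9.02 and 8.83 with saline. The 8 values of Rdh10 spanned 0.32, and its fold change over both times was -0.0019 ± 0.08, with the opposite sign (0.0014) after cyclic loess normalization.

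Of the photoreceptor genes, Rdh12 had lower signal with MPTP at both times. Rdh12 encodes the retinol dehydrogenase of inner segments that reduces retinal, including retinal that leaks from the outer segments. It was 10.27 and 10.25 in the MPTP arrays of 1 week, against 10.55 and 10.40 with saline. After 4 weeks it was 10.11 and 10.21 with MPTP, against 10.29 and 10.37 with saline. The groups did not overlap at either time or over both, although the highest MPTP value and the lowest saline value were only 0.02 apart. The fold change was -0.21 ± 0.09 at 1 week, -0.17 ± 0.09 at 4 weeks and -0.19 ± 0.06 over both times (95% confidence interval -0.33 to -0.06, adjusted p = 0.973 in limma, unadjusted p = 0.00940). It was -0.30 ± 0.11 at 1 week and -0.21 ± 0.07 over both times without the 2 arrays that stand apart. At an unadjusted p under 0.05, Rlbp1 and Rdh12 were the 2 of 9 lower over both times, against 2.47% of all genes, and the same 2 at 1 week, against 2.36%. At 4 weeks Rlbp1 was the only 1 of 9, against 0.813%.

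Rbp3 and Abca4 overlapped between MPTP and saline over both times. Rbp3 encodes IRBP, which shuttles retinoids between photoreceptors, pigment epithelium and Mueller glia. It was 11.76 and 11.83 in the MPTP arrays of 1 week, against 11.49 and 11.78 with saline. After 4 weeks it was 11.78 and 11.64 with MPTP, against 11.70 and 11.72 with saline. Saline 1 week array 1 was the lowest of the 8. Abca4 encodes the transporter that moves retinal conjugates out of the disc lumen. It was 10.54 and 10.48 in the MPTP arrays of 1 week, against 10.25 and 10.52 with saline. The later arrays gave 10.33 and 10.40 with MPTP, against 10.42 and 10.47 with saline, which did not overlap but differed by only -0.08 ± 0.10. The fold change over both times was 0.08 ± 0.08 for Rbp3 and 0.02 ± 0.08 for Abca4, and without saline 1 week array 1 the values were 0.0054 for Rbp3 and -0.05 for Abca4.

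Rod markers as a list overlapped between MPTP and saline. The mean of 13 rod markers was 11.39, 11.40, 11.30 and 11.30 in the MPTP arrays (1 week, then 4 weeks), against 11.30, 11.39, 11.31 and 11.34 in the saline arrays. Rdh12 minus this mean lay between -1.19 and -1.09 in the MPTP arrays, against -1.02 to -0.75 in the saline arrays. The rod mean itself lay between 11.30 and 11.40, so this difference mostly repeats the signal of Rdh12. Abca4 followed the rod markers across arrays (r = 0.849, exact permutation p = 0.00608, adjusted p = 0.0820, rho = 0.881, exact p = 0.00724), at r = 0.870 without the 2 arrays farthest from the median of the rod mean. It was 0.747 without the 2 arrays that stand apart, 0.952 within 1 week and 0.928 within 4 weeks, over 4 arrays each. Rdh12 and the rod markers correlated at r = 0.032 over the 8 arrays (exact p = 0.943, rho = 0.190, exact p = 0.665). Within times their r had opposite signs, at -0.901 within 1 week and 0.937 within 4 weeks, over 4 arrays each.

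**Figure D3:**
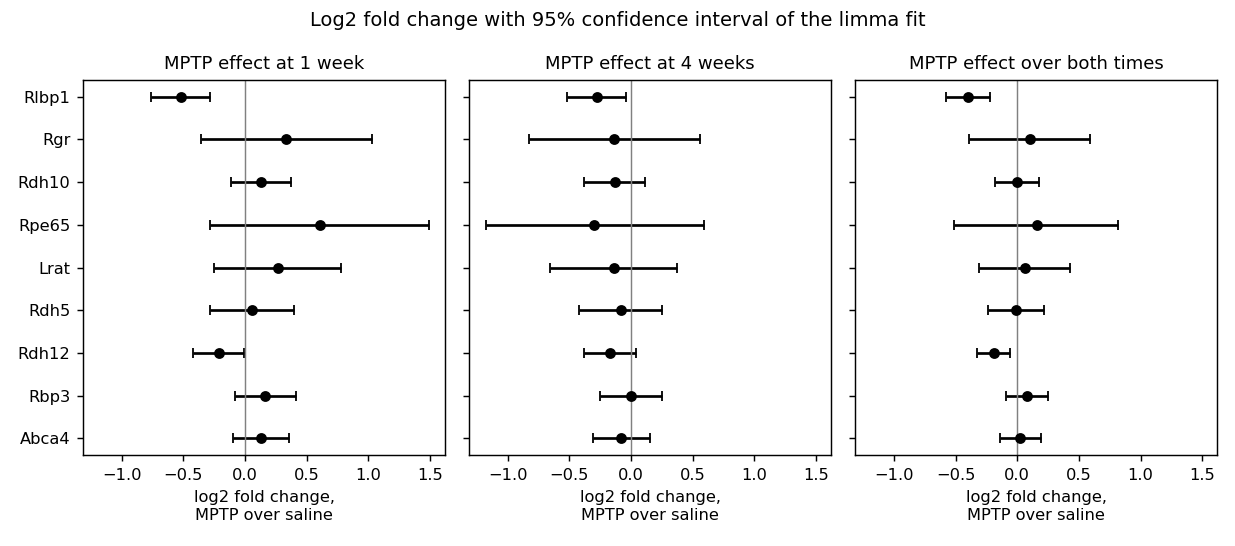
Log2 fold change of MPTP over saline with the 95% confidence interval of the limma fit for the 9 genes at 1 week, at 4 weeks and over both times. The intervals of Rlbp1 lie below 0 in each panel, that of Rdh12 at 1 week and over both times, and those of Rpe65 and Rgr are the widest.

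The pigment epithelium genes Rpe65, Lrat and Rdh5 overlapped between MPTP and saline and differed more between the 2 MPTP arrays of 1 week than between group means. Rpe65 is the isomerohydrolase that makes 11-cis-retinol from retinyl esters. It was 7.73 and 9.11 in the MPTP arrays of 1 week, against 8.14 and 7.49 with saline. The arrays of 4 weeks gave 8.34 and 7.85 with MPTP, against 8.71 and 8.07 with saline. MPTP 1 week array 2 was the highest and saline 1 week array 2 the lowest of the 8. The fold change was 0.61 ± 0.40 at 1 week, with a 95% confidence interval of -0.28 to 1.49, and -0.30 ± 0.40 at 4 weeks. Without MPTP 1 week array 2 the value at 1 week was -0.084, without MPTP 1 week array 1 it was 1.30, and without the 2 arrays that stand apart it was 0.97. MPTP 1 week array 2 also had the highest mean of the lens markers and of the pigment epithelium markers, whose part in the value was not tested.

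Lrat esterifies retinol with a fatty acid from lecithin and so makes the substrate of Rpe65. It was 6.72 and 7.62 in the MPTP arrays of 1 week, against 7.02 and 6.79 with saline, and at 4 weeks 7.25 and 7.14 with MPTP, against 7.43 and 7.25 with saline. Rdh5 oxidizes 11-cis-retinol to 11-cis-retinal. It was 6.63 and 7.03 in the MPTP arrays of 1 week, against 6.83 and 6.72 with saline, and at 4 weeks 7.02 and 6.69 with MPTP, against 7.03 and 6.84 with saline. Both genes overlapped between groups at each time. Over both times the fold change was 0.06 ± 0.17 for Lrat and -0.01 ± 0.10 for Rdh5, which had the opposite sign (0.014) without the 2 arrays that stand apart.

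The spread within groups set these genes apart from the others. The residual standard deviation was 0.610 for Rpe65, at percentile 99.96 of all genes, 0.471 for Rgr (percentile 99.8), 0.337 for Lrat (99.4) and 0.198 for Rdh5 (92.0), against a median of 0.104 over all genes. It was 0.111 for Rlbp1, 0.114 for Rdh10, 0.117 for Rbp3, 0.101 for Abca4 and 0.0684 for Rdh12. In the 2 MPTP arrays of 1 week, Rpe65 differed by 1.38 and Rlbp1 by 0.01. For Rpe65 the MPTP effect at 4 weeks less that at 1 week was -0.90 ± 0.56, the lowest log2 value of all 19938 genes, and it did not pass limma's test (adjusted p = 1.00, unadjusted p = 0.141). It was -0.21 without MPTP 1 week array 2. For that difference no gene passed (0%) and 391 genes (1.96%) had an unadjusted p under 0.05, none of the 9 genes here among them.

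The genes of the pigment epithelium varied together from array to array. Of 36 pairs among the 9 genes, 7 passed an exact permutation test of Pearson's r over the 8 arrays after adjustment over the 36 pairs, and 9 had an unadjusted p under 0.05. The 7 were all 6 pairs among Rpe65, Rgr, Lrat and Rdh5, and the pair of Rpe65 and Rdh10. Rpe65 and Rgr correlated at r = 0.967 (exact p = 1.74e-04, adjusted p = 0.00625) and had the same order over the 8 arrays (rho = 1.00, exact p = 4.96e-05, the smallest that this test gives for 8 untied ranks). Without the 2 arrays farthest from the median of Rpe65, r was 0.959, and it was 0.985 within 1 week and 0.988 within 4 weeks, over 4 arrays each. Rpe65 correlated with Lrat at r = 0.918 (exact p = 0.00174, adjusted p = 0.0208, rho = 0.905, exact p = 0.00456), with Rdh5 at 0.886 (exact p = 0.00246, adjusted p = 0.0216, rho = 0.905, exact p = 0.00456) and with Rdh10 at 0.868 (exact p = 0.00665, adjusted p = 0.0399, rho = 0.762, exact p = 0.0368). Lrat and Rgr correlated at 0.946, Rdh5 and Rgr at 0.904 and Lrat and Rdh5 at 0.852, with adjusted exact p of 0.0208, 0.0216 and 0.0476 and rho of 0.905, 0.905 and 0.929. By rank 6 of the 36 pairs passed, and the pair of Rpe65 and Rdh10 did not (adjusted exact p = 0.147 for rho).

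The r of Rpe65 with Lrat, Rdh5 and Rdh10 was 0.812, 0.946 and 0.721 without the 2 arrays farthest from the median of Rpe65. With each array left out in turn, r of the 7 pairs stayed between 0.784 and 0.974. The number of pairs past the adjusted threshold was lower in such subsets, with 1 pair without MPTP 1 week array 2 or saline 4 weeks array 1, and 3 pairs without saline 1 week array 1, saline 1 week array 2 or saline 4 weeks array 2. Without the 2 arrays that stand apart, r of Rpe65 and Rgr was 0.985 (exact p = 0.00139). No pair passed there, where 6 arrays allow a single pair an adjusted p of 0.05 at the lowest.

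**Figure D4:**
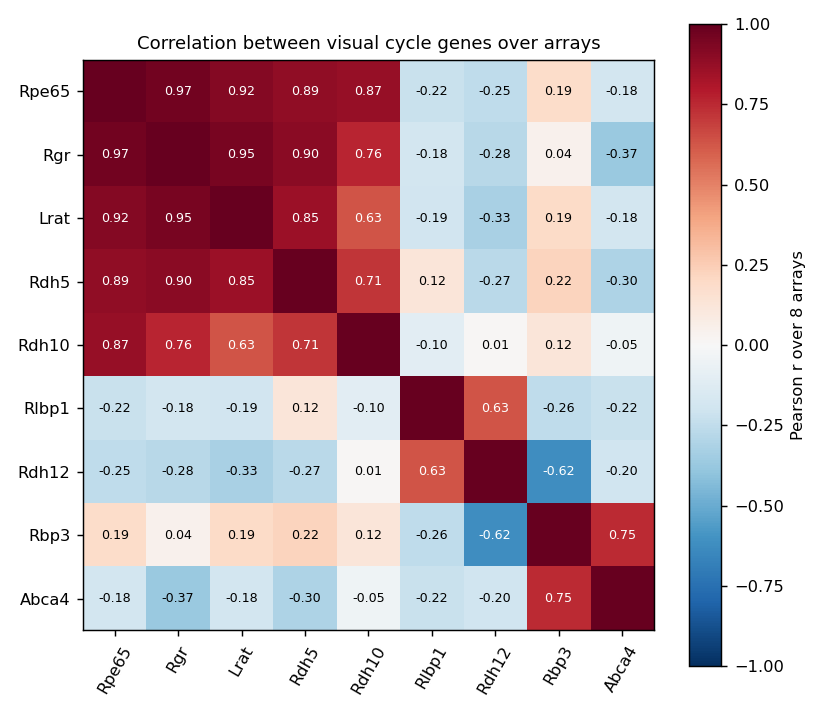
Pearson r over 8 arrays for each pair of the 9 visual cycle genes. Rpe65, Rgr, Lrat and Rdh5 correlate at 0.852 to 0.967 with each other, Rdh10 at 0.630 to 0.868 with these 4, and Rlbp1 at -0.221 to 0.120 with the genes of the pigment epithelium.

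Rlbp1 and Rpe65 correlated at r = -0.221 (exact permutation p = 0.595, rho = -0.048, exact p = 0.935) over the 8 arrays. Without the 2 arrays farthest from the median of Rlbp1 (MPTP 1 week array 1 and MPTP 4 weeks array 2) the value was -0.865, without the 2 arrays that stand apart it was -0.143, and within times it was -0.532 at 1 week and 0.697 at 4 weeks, over 4 arrays each. The 5 genes most like Rpe65 over the 8 arrays were Rgr (r = 0.967), Fam184b (0.933), Lrat (0.918), Ttr (0.916) and the mitochondrial ribosomal protein gene Mrps12 (0.895). Ttr was 10.05 and 11.04 in the MPTP arrays of 1 week, against 10.56 and 9.87 with saline. After 4 weeks it was 10.98 and 10.40 with MPTP, against 10.90 and 10.42 with saline. Its fold change over both times was 0.18 ± 0.23. The mean of 18 pigment epithelium markers, without the 9 genes, lay between 6.85 and 7.16 in the MPTP arrays and between 6.99 and 7.07 in the saline arrays. Of these 18, 7 were above and 11 below 0 over both times with a median of -0.01, and 0 passed limma's test. Slco1a4, an organic anion transporter, stood at -0.14 ± 0.10.

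This mean correlated with Rdh5 at r = 0.885 (exact permutation p = 0.00119, adjusted p = 0.0321, rho = 0.881, exact p = 0.00724), the only 1 of 27 relations to pass by r, and at 0.854 without the 2 arrays farthest from the median. By rank it did not pass (adjusted exact p = 0.0723 for rho), and 0 of the 27 relations did. Within 1 week it was 0.955 and within 4 weeks 0.940, over 4 arrays each. Its correlation was 0.813 with Rgr, 0.791 with Rpe65 and 0.790 with Lrat (adjusted p = 0.106 each, exact p = 0.0134, 0.0190 and 0.0196, rho = 0.857, 0.857 and 0.762 with exact p = 0.0107, 0.0107 and 0.0368). Without the 2 arrays farthest from the median these values were 0.658, 0.690 and 0.375. With Rlbp1 the correlation was 0.183 (exact p = 0.670, rho = 0.238, exact p = 0.582). The call for Rdh5 was lost after quantile or cyclic loess normalization, without the 2 arrays that stand apart, and without MPTP 1 week array 1 or 2, saline 1 week array 2, MPTP 4 weeks array 2 or saline 4 weeks array 2, each taken out alone, where 0 relations passed. The part of pigment epithelium in these differences between arrays was not tested.

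**Figure D5:**
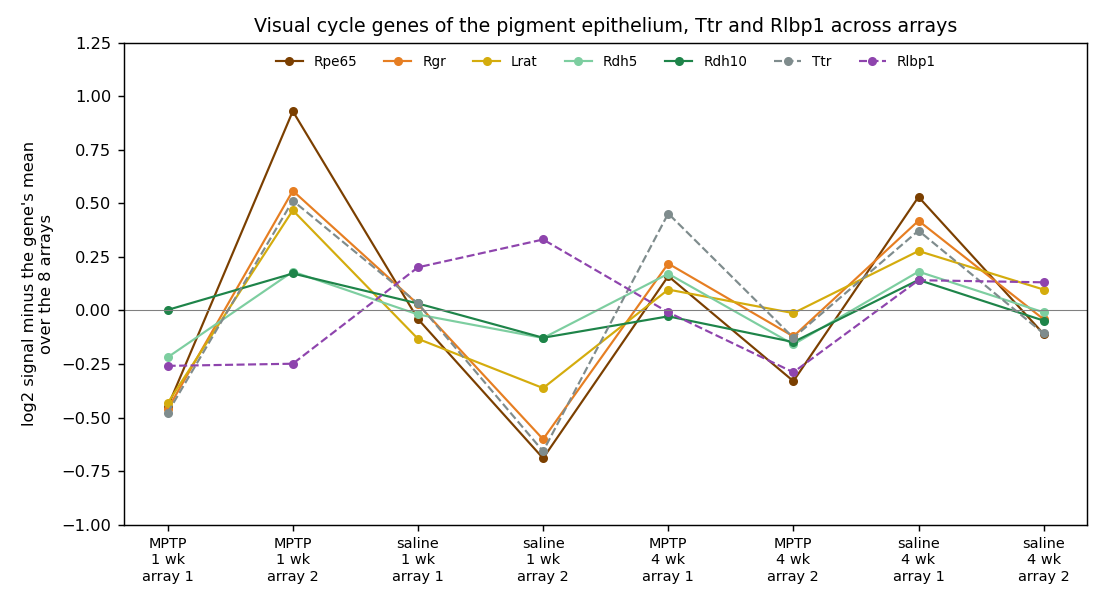
Log2 signal minus the gene's own mean over the 8 arrays, for the visual cycle genes of the pigment epithelium, the pigment epithelium marker Ttr and Rlbp1 (dashed lines for the last 2). Rpe65, Rgr, Lrat and Rdh5 are high in MPTP 1 week array 2 and saline 4 weeks array 1 and low in MPTP 1 week array 1 and saline 1 week array 2. Rlbp1 is low in MPTP 1 week arrays 1 and 2 and in MPTP 4 weeks array 2.

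As a list, the 9 genes lay on either side of 0 at 1 week and below 0 at 4 weeks. At 1 week 7 were above and 2 below 0, where 53.1% of all genes were below 0, with a median of 0.13 against -0.0081 over all genes. At 4 weeks all 9 were below 0, with a median of -0.14 against 0.0043, where 48.2% of all genes were below 0 and Rbp3 (-0.0010) had the opposite sign (0.014) after quantile normalization. Over both times 5 were above and 4 below 0, where 51% of all genes were below 0, with a median of 0.02. At 1 week 2 of the 9 were lower in MPTP arrays without overlap, against 13.8% of all genes, and at 4 weeks 3 of the 9, against 17.9%. Since 5 of the 9 genes correlated closely across arrays, these counts do not stand for 9 separate measurements.

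With time, 4 weeks against 1 week over both treatments, the fold changes of the 9 genes lay between -0.12 ± 0.06 (Rdh12) and 0.24 ± 0.22 (Rgr), and Lrat stood at 0.23 ± 0.17. None passed limma's test (adjusted p = 0.463 for Rdh12), as no gene did (0%), with 2301 genes (11.5%) at an unadjusted p under 0.05. Rgr and Lrat had the opposite sign without the 2 arrays that stand apart (-0.18 and -0.053). Rlbp1 stood at -0.01 ± 0.08 and at 0.057 after quantile or cyclic loess normalization.

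Of the other genes of ocular retinoid handling, 18 of 20 listed were measured, and none passed limma's test in any comparison. Over both times 8 were above and 10 below 0, with a median of -0.02. Rrh, the peropsin of pigment epithelium, was 8.56 and 8.59 in the MPTP arrays of 1 week, against 8.35 and 8.38 with saline (0.21 ± 0.10). After 4 weeks it was 8.43 and 8.35 with MPTP, against 8.41 and 8.19 with saline, which overlapped. Degs1, a desaturase proposed as a retinol isomerase of Mueller glia, was 8.37 and 8.33 in the MPTP arrays of 1 week, against 8.21 and 8.13 with saline (0.18 ± 0.09). At 4 weeks Rbp4, the plasma retinol carrier, whose signal was dim (percentile 20.4), stood at 0.21 ± 0.10 and Rdh11, a retinal reductase, at -0.21 ± 0.10. Of 15 genes of retinoic acid synthesis, breakdown and reception, 6 were above and 9 below 0 over both times and none passed, with Rarg at -0.12 ± 0.07 and Cyp26a1 at -0.16 ± 0.09.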

How the data were processed

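Log2 signals of 8 arrays were deposited by the authors. The submitters' processing notes name RMA and Affymetrix Expression Console without versions. The dates of hybridization and scanning were not given in the sources used here. Per the labels' protocols, 100 ng of total RNA was amplified and labelled with biotin. Of 28944 probe sets, 21789 named exactly 1 gene, and the one with the highest mean was kept for each of 19938 genes. No filter on dim signal was applied, and 8 of the 9 genes were at or above the median signal (Rdh5 was not).

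Fits used limma 3.58.1 under R 4.3.3 (two-sided), either with 1 mean for each of the 4 groups, or with time and treatment as additive terms for the comparisons over both times and with time. P-values were adjusted over all genes by the Benjamini-Hochberg method with a threshold of 0.05. The limma code was tested on simulated data. Correlations over arrays had two-sided exact permutation tests over all pairings. Percentiles refer to the mean signal or residual spread of all genes. Promoters were those of RefSeq for 8 of the 9 genes (Rdh10 was not matched). Other genes were named by fixed rules: in each retinoid list and in the Mueller glia and pigment epithelium lists those with the smallest unadjusted p, a few defining markers, and the 5 genes most like Rlbp1 and Rpe65.

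The genes, lists and tests were chosen with earlier results of these data known. Alternatives were quantile, median and cyclic loess scaling, a filter at percentile 50, other uses of probe sets, other eBayes settings, only the groups compared, a replicate block, each array left out and the 2 arrays that stand apart left out. A block with exchanged numbers and the alternatives for correlations were chosen after seeing the data. Correlations and figures were made in Python 3.11.15, with matplotlib 3.10.9.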

Additional observations from a re-analysis of the deposited data

Results flagged for a closer look

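In the MPTP arrays of both times, Rlbp1 was 8.44 in MPTP 4 weeks array 1, against 8.16, 8.19 and 8.20 in the other 3. Its gap to the nearest of these was 0.845 of the whole range of the 4, which picked it as a sample far from the others. Of 18 sets of 4 arrays examined for the 9 genes it was the only one picked, where about 5% are picked by chance. Rlbp1 over both times was -0.48 without this array, and -0.40 with it.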

How the results depend on the processing

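Under each of the alternatives run, 0 genes passed the adjusted threshold in the 5 comparisons, and none of the 9 genes passed. The MPTP effect on Rlbp1 was below 0 under every one of them, from -0.58 to -0.45 at 1 week, -0.43 to -0.14 at 4 weeks and -0.48 to -0.34 over both times (adjusted p = 0.243 to 1.00 over the 3 comparisons), and so was that on Rdh12, at -0.30 to -0.14, -0.22 to -0.12 and -0.22 to -0.16. Of 45 values for the 9 genes, 18 kept their sign throughout. With each array left out, values that changed sign ranged at 1 week from -0.084 to 1.30 for Rpe65, -0.18 to 0.72 for Lrat, -0.14 to 0.26 for Rdh5, -0.18 to 0.84 for Rgr and -0.0072 to 0.26 for Abca4. At 4 weeks they were -0.62 to 0.025 for Rpe65, -0.25 to 0.084 for Rdh5, -0.067 to 0.065 for Rbp3 and -0.37 to 0.096 for Rgr. Over both times they were -0.21 to 0.37 for Rpe65, -0.16 to 0.20 for Lrat, -0.10 to 0.070 for Rdh5, -0.062 to 0.062 for Rdh10, -0.050 to 0.058 for Abca4 and -0.15 to 0.25 for Rgr. For the difference of the effects they were -0.86 to 0.040 for Lrat, -0.34 to 0.056 for Rdh5, -0.98 to 0.043 for Rgr and -0.026 to 0.12 for Rdh12, and with time -0.095 to 0.035 for Rlbp1, -0.098 to 0.49 for Rpe65, -0.10 to 0.019 for Rdh10 and -0.079 to 0.039 for Rbp3. After quantile normalization Rbp3 at 4 weeks was 0.014, and with time Rlbp1 was 0.057, Rdh10 0.046, Rbp3 0.045 and Abca4 0.030. After cyclic loess Rdh10 over both times was 0.0014, and with time Rlbp1 was 0.057, Rdh10 0.036, Rbp3 0.054 and Abca4 0.030. Without the 2 arrays that stand apart Rdh5 over both times was 0.014, and with time Rlbp1 was 0.014, Rpe65 -0.39, Lrat -0.053, Rdh5 -0.036, Rbp3 0.052, Abca4 0.039 and Rgr -0.18. The cause of these changes of sign was not tested.

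Of the correlations between the 9 genes, 1 to 6 of 36 passed with each array left out, and 0 without the 2 arrays that stand apart. Of those with marker lists, 0 to 1 of 27 passed with each array left out, and 0 after quantile or cyclic loess normalization or without the 2 arrays that stand apart. With the filter at percentile 50 Rdh5 was not tested. The number of arrays and dim signal limit the precision. The replicate numbers were not taken to pair the samples, since the differences of array 1 and array 2 correlated at -0.383 between the groups of 1 week, 0.119 between those of 4 weeks and -0.16 to 0.207 between groups of different times, and not every pair was above 0.1. With the replicate block, 0 genes passed and Rlbp1 stood at -0.52 ± 0.12 at 1 week, and with the numbers of MPTP 1 week exchanged it was -0.52 ± 0.11, again with 0 genes.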

Other observations

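Retinol dehydrogenases that act mainly in other organs and the opsins lay close to 0. Of 11 such dehydrogenases, 6 were above and 5 below 0 over both times with a median of 0.01, and none passed limma's test adjusted over all genes. Rdh19 stood at -0.16 ± 0.10 and Dhrs4 at -0.07 ± 0.06. Of 5 opsins measured, 2 were above and 3 below 0, and none passed. Opn4, the melanopsin of light-sensitive ganglion cells, stood at -0.08 ± 0.07, and Opn1mw, the middle-wave cone opsin, at 0.07 ± 0.06.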
